A study of Mus musculus with 6 samples.

Results

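The chemokine ligand and receptor genes of mouse dorsal root ganglia were described in 6 bulk RNA-seq libraries. They were all protein-coding entries of the count table whose symbol starts with Ccl, Cxcl, Cx3cl, Xcl, Ccr, Cxcr, Cx3cr, Xcr or Ackr, followed directly by a number, and that had a read in any library. This gave 57 genes, 37 of them ligands and 20 receptors, among 54532 entries, of which 22046 were protein-coding. Dorsal root ganglia hold the cell bodies of the sensory neurons, together with satellite glia, Schwann cells, vessels, connective tissue and resident immune cells. The study, whose title names Ash1l in neurons and psoriasis of the skin, compared ganglia of 3 samples labelled Ash1l+/- with 3 labelled WT, taken from wild types of the same litters. No treatment was named for either group. The labels leave out age, sex, strain, the nature of the Ash1l allele, the spinal levels of the ganglia and any pooling. They also do not tie libraries to separate animals, and p-values here reflect the spread of these samples alone, which may be technical.

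Chemokines are small secreted or membrane-tethered proteins that direct the migration of leukocytes and other cells, and they are named by the spacing of their first cysteine pair: adjacent in CC chemokines, separated by a single residue in CXC chemokines and by a longer stretch in the CX3C chemokine. Most act through receptors that couple to G proteins, while the atypical receptors of the Ackr group bind chemokines without G protein signalling and transport or remove them. In sensory ganglia the family is known for Ccl2, which neurons produce after nerve injury, for the axis of Cxcl12 with Cxcr4 and Ackr3, and for Cx3cl1, made by neurons and read by Cx3cr1 on macrophages.

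The coding sequence around the first cysteine pair is shown for 5 ligands that the results below turn on, 1 or more for each spacing class, as read from the GENCODE M21 transcripts. Capitals mark the codons of the 2 cysteines, the rest is in lower case, and each run is written 5′ to 3′ on the strand of the gene in GRCm38.
Ccl2, exon sequence at chr11:82036488-82036529, plus strand: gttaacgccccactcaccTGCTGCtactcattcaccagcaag
Ccl7, exon sequence at chr11:82046520-82046561, plus strand: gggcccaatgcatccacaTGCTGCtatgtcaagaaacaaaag
Ccl27a, exon sequence at chr4:41769927-41769968, minus strand: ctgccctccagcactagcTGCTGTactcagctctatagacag
Cxcl12, exon sequence at chr6:117171490-117171534, plus strand: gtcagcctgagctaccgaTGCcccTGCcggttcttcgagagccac
Cx3cl1, exon sequence at chr8:94778033-94778083, plus strand: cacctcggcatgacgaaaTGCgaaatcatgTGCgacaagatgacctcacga
The number of codons between the capitals is 0 in Ccl2, Ccl7 and Ccl27a, 1 in Cxcl12 and 3 in Cx3cl1. Ccl2 and Ccl7 lie next to each other on chromosome 11. Their coding sequences, of 444 and 291 bases, were identical in 226 of 456 alignment positions (49.6%). These positions include the gaps left by the longer Ccl2 sequence, so the share understates the likeness of the bases that align. Neither shares a 50-base word with the transcript of any other gene.

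Total counts ranged from 17209294 to 20545722 per library. The 57 genes took 0.0219% to 0.0258% of the counts in 5 libraries and 0.0409% in WT replicate 2. A single read in a library corresponds to 0.0457 to 0.0746 CPM (read counts relative to library size, scaled by TMM factors). WT replicate 2 stood apart across all genes: its correlation with the other libraries on the log2 CPM scale was 0.860 to 0.890, against 0.985 to 0.994 among the other 5. Fold changes of the family are therefore given with 6 libraries and with 5, without WT replicate 2. The targeted gene did not check the labels: Ash1l reached 66.4, 66.4 and 68.8 CPM in Ash1l+/- replicates 1, 2 and 3, above the 60.8, 30.9 and 54.3 CPM of WT replicates 1, 2 and 3. Its log2 fold change was 0.46 (SE 0.27, edgeR adjusted p 0.396) with 6 libraries and 0.22 (SE 0.08, edgeR adjusted p 0.0593) with 5, so each direction below is that of the libraries labelled Ash1l+/-. The 11 sensory neuron markers, which define the labelled tissue, were abundant, with a summed level of 13435 to 13797 CPM in 5 libraries and 28565 CPM in WT replicate 2. In whole ganglia, fewer cells of a type and less RNA per cell cannot be told apart.

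Most of the family was scarce. Of the 57 genes, 18 had a mean of at least 1 CPM, and the other 39 had a mean between 0.00822 and 0.969 CPM, with 1 to 100 reads over all 6 libraries. Of those 39, 17 had fewer than 10 reads in all. The table held 10 more entries of the family with no read in any library: Ccl4, Ccr4, Cxcr1, Cxcl3, Cxcl15, Ccr8, a pair of Ccl19 entries, and a further copy each of Ccl21c and Ccl27a on unplaced scaffolds. A count of 0 allows up to 3 reads, which is 0.137 to 0.224 CPM depending on the library and covers counting error only.

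Levels of the 18 more abundant genes were compared as CPM per kb of exon, over the 5 libraries without WT replicate 2. Ackr1, an atypical receptor that binds many inflammatory chemokines and is known from red cells and venules, was highest at 78.1 ± 6.32 CPM per kb (SD, n = 5), and its range of 70.5 to 83.6 overlapped with no other gene of the family. Of the Ackr1 exon bases, 25.7% also belong to Cadm3 on the same strand, so part of this level may not be that of Ackr1. Cxcr4, the signalling receptor for Cxcl12, was next at 10.9 ± 2.12 CPM per kb and did not overlap with the genes below it. Ccl11 (7.03 ± 0.643) and Ccl27a (6.55 ± 1.17) did not differ beyond their spread in CPM per kb. Cxcl12 followed at 3.87 ± 0.271, apart from its neighbours in the order, and Ackr3 (2.07 ± 0.271) and Cx3cl1 (1.62 ± 0.25) overlapped with each other. From Ccl2 (1.47 ± 0.87) through Ccl7 (1.11 ± 0.526), Ccr10 (0.997 ± 0.315) and Ccl6 (0.937 ± 0.0961) to Cxcl16 (0.776 ± 0.155), each gene overlapped with the next in CPM per kb. Cxcl10, Cx3cr1, Ccl9, Ccl25, Ccl28 and Ccr2 had means of 0.641, 0.636, 0.496, 0.428, 0.374 and 0.321 CPM per kb.

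**Figure D1:**
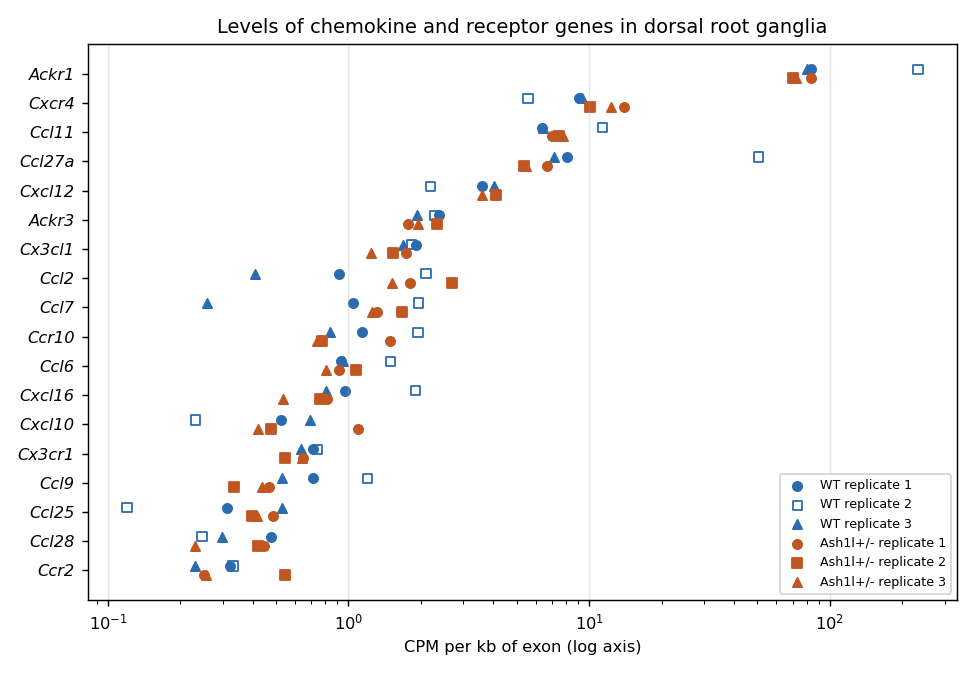
Level of the 18 chemokine and receptor genes with a mean of at least 1 CPM, as CPM per kb of exon on a log axis, with 1 point per library. Ackr1 lies above all other genes in every library, and WT replicate 2 lies apart from the other 5 libraries most clearly for Ackr1 and Ccl27a.

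With all 6 libraries, 19 of the 57 genes passed the filter on low counts and 0 passed an adjusted p of 0.05 in the edgeR quasi-likelihood test, where the share over all 16032 genes tested was also 0%. At an unadjusted p under 0.05, edgeR took 1 of the 19 (Ccl9), DESeq2 took 3 and limma-voom took 0, and the shares over all genes were 10.6%, 17.5% and 8.4%. DESeq2 and limma-voom called 0 of the 19 after adjustment, against 0.218% and 0% of all genes. The median log2 fold change of the 19 genes was -0.12, beside 0.00 over all genes, and the median absolute log2 fold change was 0.41 beside 0.40.

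With 5 libraries, 20 of the 57 genes were tested and 3 passed: Ccl2 and Cxcr4 rose and Ccl27a fell in the libraries labelled Ash1l+/-. That is 15% of the 20, and edgeR called 19.8% of all 16395 genes tested, 9.39% higher and 10.4% lower, so the share in the family is near that of the whole table. The median log2 fold change of the 20 genes was 0.01, with 10 above 0 and 10 below, and the median absolute log2 fold change was 0.19, beside 0.21 over all genes. With the trends of each library with gene length and GC share removed, edgeR called 1 of the 20 (Ccl2), against 7.56% of all genes, 2.71% higher and 4.85% lower. DESeq2 called 1 (Cxcr4), against 17.9%, and limma-voom called the 3 genes that edgeR called, against 19.5%. Groups did not overlap in CPM for 3 of 19 genes with 6 libraries (15.8%, against 38.5% of all genes tested) and for 7 of 20 with 5 libraries (35%, against 49.2%).

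**Figure D2:**
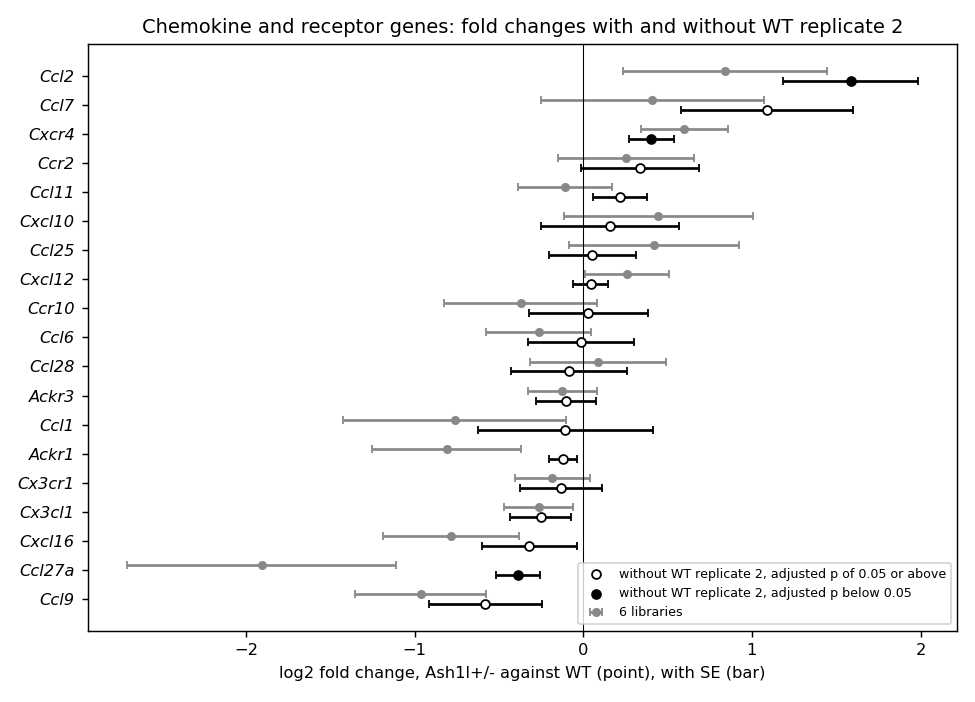
Log2 fold change of libraries labelled Ash1l+/- against WT for the 19 chemokine and receptor genes tested in both comparisons, with 6 libraries and with 5 (without WT replicate 2); points are the edgeR estimates and bars are 1 SE. Ccl2 at 1.58 is the highest value with 5 libraries, and Ackr1 and Ccl27a move toward 0 when WT replicate 2 is left out.

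Among the CC ligands, Ccl2, Ccl7, Ccl8 and Ccl12 attract monocytes through the receptor Ccr2. Ccl2 (chr11:82035571-82037453, plus strand) had 1.04, 2.39 and 0.466 CPM in WT and 2.06, 3.05 and 1.72 CPM in Ash1l+/-, here and below in the order of replicates 1, 2 and 3. WT replicates 1 and 3 were the lowest of the 6 libraries, while WT replicate 2 lay within the range of the other genotype. The counts behind these values were 21, 32 and 9 reads in WT and 45, 57 and 31 reads in Ash1l+/-. With 6 libraries the log2 fold change was 0.84 (SE 0.60, edgeR adjusted p 0.447). With 5 it was 1.58 (SE 0.40, edgeR adjusted p 0.00909), a 3.00-fold rise, and 1.55 (edgeR adjusted p 0.0212) with length and GC trends removed. The call rested on WT replicate 3 as well: without it and WT replicate 2, leaving WT replicate 1 as the lone wild type, assumed to vary as the other group does, the log2 fold change was 1.13 (edgeR adjusted p 0.104). Over the alternatives that gave one, the adjusted p ran from 0.000288 to 0.104. DESeq2 gave no adjusted p for Ccl2 because of its low count, and its unadjusted p was 0.000956.

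Ccl7 (chr11:82045712-82047525, plus strand), the neighbour of Ccl2, had 0.839, 1.57 and 0.207 CPM in WT and 1.05, 1.34 and 1.00 CPM in Ash1l+/-. As for Ccl2, the lowest library was WT replicate 3, and WT replicates 1 and 3 lay below every Ash1l+/- library. Unlike for Ccl2, WT replicate 2 lay above every Ash1l+/- library and was the highest of the 6 libraries. Ccl7 did not pass the test: its log2 fold change was 0.41 (SE 0.66, edgeR adjusted p 0.71) with 6 libraries and 1.09 (SE 0.51, edgeR adjusted p 0.139) with 5. Leaving out a further library moved the latter between 0.42, without WT replicate 3, and 2.41, without WT replicate 1, and it passed in no case. Ccl12 and Ccl8 were too low to be tested. Ccl12 had 5, 5 and 1 reads in WT and 8, 9 and 5 in Ash1l+/-, and Ccl8 had 7, 4 and 1 reads in WT and 6, 3 and 1 in Ash1l+/-. In all 4 ligands WT replicate 3 had the fewest reads of any library or tied for the fewest.

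The receptor of these ligands, Ccr2 (chr9:124101950-124113557, plus strand), had 2.17, 2.24 and 1.55 CPM in WT and 1.69, 3.7 and 1.72 CPM in Ash1l+/-. The groups overlapped, and the highest library was Ash1l+/- replicate 2. The log2 fold change was 0.25 (SE 0.40, edgeR adjusted p 0.706) with 6 libraries and 0.34 (SE 0.35, edgeR adjusted p 0.536) with 5. With 5 libraries and length and GC trends removed it was 0.04 (edgeR adjusted p 0.964). Of the macrophage markers, 0 of 15 rose and 1, Cd163, fell with 5 libraries, beside 9.39% of all genes called higher and 10.4% lower. The summed level of these markers was 93.6 and 100 CPM in WT replicates 3 and 1, 187 CPM in WT replicate 2 and 78.8 to 95.7 CPM in Ash1l+/-. Of 9 monocyte and dendritic cell markers, 6 were tested and 0 passed, with summed levels of 85.6 to 102 CPM in Ash1l+/- and of 94.3, 105 and 186 CPM in WT replicates 3, 1 and 2.

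**Figure D3:**
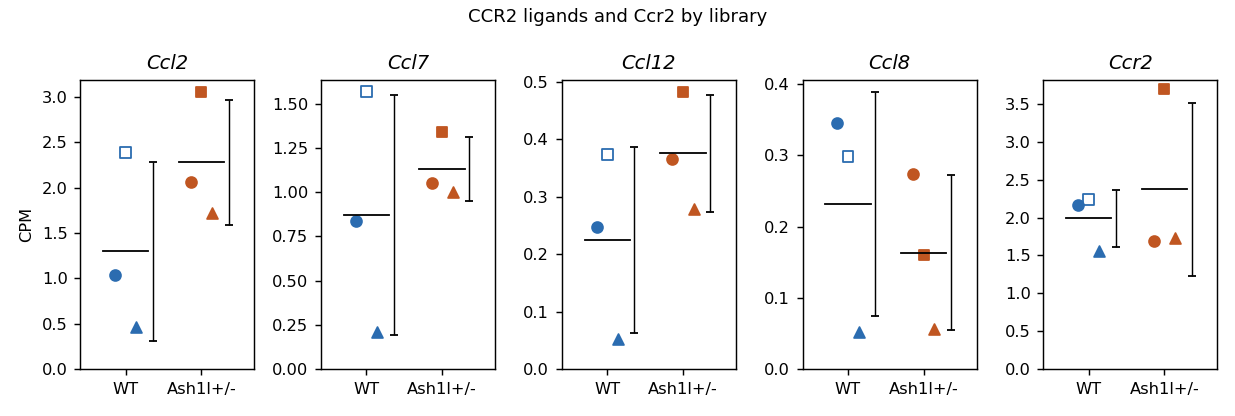
CPM of Ccl2, Ccl7, Ccl12, Ccl8 and their receptor Ccr2 in each library, with the group mean as a line and the SD as a bar. For Ccl2 the WT libraries spread from 0.466 to 2.39 CPM and the Ash1l+/- libraries from 1.72 to 3.05 CPM, and WT replicate 2 is the only wild type among the Ash1l+/- values.

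The CC ligands that act mainly through receptors such as Ccr1 and Ccr3 include the eosinophil attractant Ccl11 and the rodent macrophage products Ccl6 and Ccl9. Ccl11 (chr11:82057823-82062955, plus strand) had 6.91, 12.3 and 6.94 CPM in WT and 7.59, 8.14 and 8.45 CPM in Ash1l+/-. WT replicate 2 was the highest library and the other WT libraries were the lowest, so its log2 fold change was -0.11 (SE 0.28) with 6 libraries and 0.22 (SE 0.16, edgeR adjusted p 0.356) with 5. Ccl9 (chr11:83572919-83578636, minus strand) had 2.17, 3.66 and 1.61 CPM in WT and 1.42, 1.02 and 1.33 CPM in Ash1l+/-. All 3 WT libraries lay above all 3 Ash1l+/- libraries. The log2 fold change of Ccl9 was -0.96 (SE 0.39, edgeR adjusted p 0.385, unadjusted 0.0464) with 6 libraries and -0.58 (SE 0.34, edgeR adjusted p 0.239) with 5. Ccl6 (chr11:83587882-83593087, minus strand), which adjoins Ccl9, had 1.68, 2.69 and 1.71 CPM in WT and 1.65, 1.93 and 1.45 CPM in Ash1l+/-, with groups that overlapped and a log2 fold change of -0.26 (SE 0.31) with 6 libraries and -0.01 (SE 0.32) with 5. The other 4 genes of this group, Ccl3, Ccl5, Ccl24 and Ccl26, had 3, 21, 24 and 4 reads in all.

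Among the ligands known for traffic of lymphocytes and dendritic cells in skin and mucosa, Ccl27a was the most abundant. Ccl27a (chr4:41769467-41774247, minus strand), a skin T cell attractant that binds Ccr10, had 19.3, 120 and 17.03 CPM in WT and 15.8, 12.7 and 13.01 CPM in Ash1l+/-. WT replicate 2 was 6.59 times the mean of the other WT libraries, and these in turn lay above every Ash1l+/- library. The log2 fold change was -1.91 (SE 0.80, edgeR adjusted p 0.385) with 6 libraries and -0.39 (SE 0.13, edgeR adjusted p 0.043) with 5, but -0.07 (edgeR adjusted p 0.759) with 5 libraries and length and GC trends removed, and the DESeq2 adjusted p was 0.0622. The call was lost without WT replicate 1, Ash1l+/- replicate 2 or Ash1l+/- replicate 3, with edgeR adjusted p of 0.349, 0.145 and 0.122 and log2 fold changes of -0.30, -0.33 and -0.34. The first of these fits has a single WT library. Over the alternatives with 5 libraries the adjusted p ran from 0.00661 to 0.759.

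Part of the reads of Ccl27a may be hard to assign. Of the 947 different 50-base words of its longest transcript, 69.2% also occur in transcripts of 5 other entries on chromosome 4. These entries held 16 reads in all against 3141 for Ccl27a. The words do not cover all of the 2377 exon bases over which Ccl27a was counted. Entries on unplaced scaffolds were not part of that comparison. The gene also overlaps by 8 exon bases, 0.337% of its own, with Il11ra1 on the opposite strand, a receptor gene for interleukin 11. Il11ra1 had 19.3, 79.8 and 17.2 CPM in WT and 13.6, 14.8 and 11.5 CPM in Ash1l+/-, and its log2 fold change was -1.54 (edgeR adjusted p 0.385) with 6 libraries. With 5 it was -0.46 and passed (edgeR adjusted p 0.0191), but with length and GC trends removed it was -0.31 and did not (edgeR adjusted p 0.121). Both genes were highest in WT replicate 2 and lower in every Ash1l+/- library than in any WT library. The library kit as named in the labels does not mark strand, so reads in those 8 shared bases cannot be told apart. Whether they have any part in the pattern common to both genes was not tested.

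Ccl25, a thymus and gut chemokine (chr8:4325210-4360020, plus strand), had 2.32, 0.895 and 3.93 CPM in WT and 3.61, 2.95 and 3.11 CPM in Ash1l+/-. Ccl28, a mucosal ligand of Ccr10 (chr13:119623819-119654359, plus strand), had 2.32, 1.19 and 1.45 CPM in WT and 2.15, 2.04 and 1.11 CPM in Ash1l+/-. For both genes the groups overlapped, and the log2 fold changes were 0.42 (SE 0.50) and 0.09 (SE 0.40) with 6 libraries and 0.05 (SE 0.26) and -0.08 (SE 0.34) with 5. Ccl25 shares 204 exon bases, 2.74% of its own, with Elavl1 on the opposite strand, a gene at 39.2 to 52 CPM. Ccr10, the receptor shared by Ccl27a and Ccl28 (chr11:101172997-101175443, minus strand), had 1.97, 3.36 and 1.45 CPM in WT and 2.56, 1.34 and 1.28 CPM in Ash1l+/-. Those groups overlapped too, with a log2 fold change of -0.37 (SE 0.45) with 6 libraries and 0.03 (SE 0.35) with 5. Ccl1 was tested at 13, 29 and 17 reads in WT and 14, 6 and 21 in Ash1l+/-, and gave -0.76 (SE 0.66, edgeR adjusted p 0.512) with 6 libraries and -0.11 (SE 0.52, edgeR adjusted p 0.912) with 5. The other 10 ligands of this group were not tested and held 2 to 24 reads each, 4 of them on unplaced scaffolds.

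The CXC ligands were led by Cxcl12 (chr6:117168535-117181367, plus strand), a constitutive chemokine of stroma and endothelium. It had 29.2, 17.9 and 33.0 CPM in WT and 33.1, 33.6 and 29.3 CPM in Ash1l+/-. The groups overlapped and only WT replicate 2 lay low, and the log2 fold change was 0.26 (SE 0.25, edgeR adjusted p 0.548) with 6 libraries and 0.05 (SE 0.10, edgeR adjusted p 0.798) with 5. Cxcl16 (chr11:70453983-70459984, minus strand), a membrane-tethered ligand of Cxcr6, had 2.91, 5.75 and 2.43 CPM in WT and 2.47, 2.3 and 1.61 CPM in Ash1l+/-. Its log2 fold change was -0.78 (SE 0.40, edgeR adjusted p 0.387) with 6 libraries and -0.32 (SE 0.28, edgeR adjusted p 0.456) with 5. In Cxcl16, 18.3% of exon bases overlap with Zmynd15 on the opposite strand, which had 0.448 to 1.53 CPM.

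Cxcl9 and Cxcl10 are induced by interferons and bind Cxcr3 on T cells. Cxcl10 (chr5:92346638-92348889, minus strand) had 1.18, 0.522 and 1.55 CPM in WT and 2.47, 1.07 and 0.945 CPM in Ash1l+/-, and Ash1l+/- replicate 1 was the highest. The groups overlapped, and the log2 fold change was 0.45 (SE 0.56, edgeR adjusted p 0.636) with 6 libraries and 0.16 (SE 0.41, edgeR adjusted p 0.822) with 5. Cxcl10 shares 133 exon bases, 5.91% of its own, with Art3 on the opposite strand, which was far more abundant at 67.8 to 79 CPM. Cxcl9 had 0, 2 and 1 reads in WT and 15, 0 and 1 in Ash1l+/-, so 15 of its 19 reads came from that same library. Their receptor Cxcr3 had 3 reads in all. The neutrophil attractants that bind Cxcr2 were nearly silent: 3 of the 5 entries had any read, with 7 reads for Cxcl1, 3 for Cxcl5 and 2 for Cxcl2, and their summed level was 0 to 0.274 CPM per library. Their receptor Cxcr2 had 18 reads in all. Cxcl13, Cxcl14 and Cxcl17, the remaining CXC ligands, had 24, 48 and 6 reads.

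Cx3cl1 (chr8:94772009-94782427, plus strand), the membrane-tethered chemokine that neurons are known to make, had 7.5, 7.16 and 6.63 CPM in WT and 6.81, 6.0 and 4.89 CPM in Ash1l+/-. Its receptor Cx3cr1 (chr9:119901616-120069879, minus strand), a macrophage gene in ganglia, had 3.21, 3.36 and 2.85 CPM in WT and 2.93, 2.46 and 2.89 CPM in Ash1l+/-. WT replicate 2 lay within the range of the other libraries for Cx3cl1 and was the highest by a small margin for Cx3cr1, and for each gene the groups overlapped. For Cx3cl1 the log2 fold change was -0.26 (SE 0.20) with 6 libraries and -0.25 (SE 0.18, edgeR adjusted p 0.353) with 5. For Cx3cr1 it was -0.18 (SE 0.22) with 6 and -0.13 (SE 0.24, edgeR adjusted p 0.75) with 5. Xcl1, a product of T and NK cells, had 9 reads in all and its receptor Xcr1, a dendritic cell gene, had 20.

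Of the signalling receptors, Cxcr4 (chr1:128588199-128592293, minus strand) was the one that passed the test. It had 16.3, 10.1 and 16.8 CPM in WT and 25.2, 18.2 and 22.2 CPM in Ash1l+/-. All 3 Ash1l+/- libraries lay above all 3 WT libraries, with WT replicate 2 lowest. The group means were 14.4 ± 3.76 CPM in WT and 21.9 ± 3.55 CPM in Ash1l+/- (SD, n = 3 each). The log2 fold change was 0.60 (SE 0.26, edgeR adjusted p 0.385) with 6 libraries. With 5 it was 0.40 (SE 0.13, edgeR adjusted p 0.0365), a 1.32-fold rise, and DESeq2 gave an adjusted p of 0.0409. The fold was 0.41 with length and GC trends removed, where the edgeR adjusted p was 0.0592. The call was also lost on leaving out any 1 of WT replicates 1 and 3 and Ash1l+/- replicates 1 and 3, with edgeR adjusted p of 0.219, 0.101, 0.105 and 0.0743 and log2 fold changes of 0.38, 0.42, 0.28 and 0.40. The first 2 of these fits have a single WT library. Over all alternatives with 5 libraries the adjusted p ran from 0.00055 to 0.219.

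The scarce CC receptors Ccr1, Ccr1l1, Ccr3, Ccr6, Ccr7 and Ccr9 had 27, 3, 12, 1, 17 and 2 reads. Cxcr5 had 1 read and Cxcr6 had 11, and neither was tested. T and NK cell markers were low as well: 2 of 10 were tested, 0 passed, and their summed level was 2.41 to 5.52 CPM.

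The atypical receptors held the most abundant gene of the family. Ackr1 (chr1:173331886-173333750, minus strand) had 117.5, 326 and 113 CPM in WT and 117, 99.01 and 101 CPM in Ash1l+/-. WT replicate 2 was 2.83 times the mean of the other WT libraries, and those overlapped with the Ash1l+/- range. The log2 fold change was -0.81 (SE 0.44, edgeR adjusted p 0.39) with 6 libraries and -0.12 (SE 0.08, edgeR adjusted p 0.334) with 5. Marker levels of cells known to carry Ackr1 were also highest in that library. So were those of all other cell types followed except mast cells, fibroblasts and the central nervous system. Satellite glia markers, for example, summed to 11006 CPM in WT replicate 2 and 3330 to 4074 CPM elsewhere. The summed level of 5 red cell markers was 627 CPM in WT replicate 2 and 31.4 to 101 CPM elsewhere, and that of 9 blood endothelial markers was 276 CPM there and 120 to 144 CPM elsewhere; their part in the Ackr1 level was not tested. Among the Ash1l+/- libraries, replicate 1 had the most Ackr1, the lowest red cell sum and the highest blood endothelial sum. Reads of Ackr1 can also belong to Cadm3, an adhesion gene on the same strand whose exons cover 25.7% of the Ackr1 exon bases. Cadm3 had 341 CPM in WT replicate 2 and 532 to 613 CPM in the other libraries. Over the 5 libraries without WT replicate 2 the mean level of Cadm3 was 78.1 CPM per kb, beside 78.1 CPM per kb for Ackr1. The ranges over these libraries were 73.5 to 84.5 for Cadm3 and 70.5 to 83.6 for Ackr1. Of the 50-base words of the longest Ackr1 transcript, 6.07% also occur in transcripts of Cadm3. What share of the Ackr1 reads belongs to Cadm3 was not tested.

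Ackr3 (chr1:90203980-90216751, plus strand), which removes Cxcl12, had 7.99, 7.61 and 6.47 CPM in WT and 5.94, 7.82 and 6.5 CPM in Ash1l+/-. The groups overlapped, and the log2 fold change was -0.12 (SE 0.20, edgeR adjusted p 0.715) with 6 libraries and -0.10 (SE 0.18, edgeR adjusted p 0.733) with 5. Of the axis of Cxcl12 with its receptors, the signalling receptor Cxcr4 therefore passed the test with 5 libraries, while the ligand and the atypical receptor did not. Whether their fold changes differ from that of Cxcr4 was not tested. Ackr2, which removes inflammatory CC chemokines, had 4, 12 and 3 reads in WT and 3, 3 and 2 in Ash1l+/-. Ackr4, which removes homeostatic CC chemokines, had 11, 0 and 9 reads in WT and 5, 3 and 6 in Ash1l+/-.

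WT replicate 2 differed from the other 5 libraries in most of the 18 more abundant genes. It was above all 5 in 9 genes, below all 5 in 4 and between them in 5. The median absolute log2 difference from the mean of WT replicates 1 and 3 was 0.79 in the 18 genes and 0.74 over all genes tested, so the family moved about as much in this library as the rest of the table did. Relative to WT replicates 1 and 3 the highest ratios were those of Ccl27a, Ccl2, Ccl7 and Ackr1, and the 4 genes below all other libraries were Cxcl12, Cxcr4, Cxcl10 and Ccl25. WT replicates 1 and 3 differed from each other by a median of 0.25 in the 18 genes, against 0.13 over all genes.

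**Figure D4:**
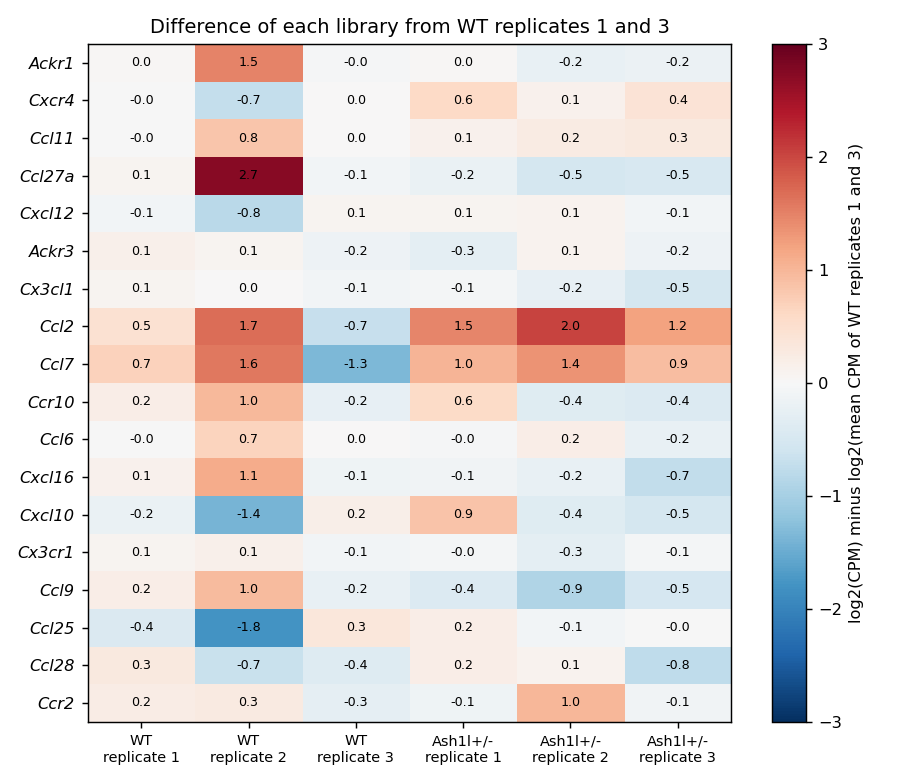
Log2 difference of each library from the mean of WT replicates 1 and 3 for the 18 more abundant genes, as a heat map with 1 column per library. The column of WT replicate 2 holds most of the strong colours, in both directions, and the Ash1l+/- columns are strongest in Ccl2 and Ccl7.

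Chemokine genes are known to lie in clusters, and 6 clusters of at least 3 genes within 500 kb of each other held 28 of the 57 genes. The cluster at chr11:82035571-82305690 holds Ccl2, Ccl7, Ccl11, Ccl12, Ccl8 and Ccl1, whose levels ran from 0.308 to 7.03 CPM per kb. A second on the same chromosome, at chr11:83525778-83649355, holds Ccl5, Ccl9, Ccl6 and Ccl3, at 0.0358 to 0.937 CPM per kb. A cluster of receptor genes on chromosome 9, among them Ccr9, Cxcr6, Xcr1, Ccr1, Ccr1l1, Ccr3 and Ccr2, was low throughout, at 0.00185 to 0.321 CPM per kb. Neighbours in a cluster thus differed widely in level as counted. In the cluster at chr4:41769467-42773993, Ccl27a reached 6.55 CPM per kb and Ccl21a, the lowest of its 3 neighbours, 0.0251, from 2 reads. Copies of Ccl21a, Ccl21b and Ccl27a also lie on unplaced scaffolds. The handling of reads with several matches is not given, so reads may be missing from these low levels, which was not tested. The remaining clusters were that of Cxcl5, Cxcl1 and Cxcl2 at chr5:90759360-90905938, at no more than 0.0384 CPM per kb, and that of Ccl22, Cx3cl1 and Ccl17 at chr8:94745590-94812036, led by Cx3cl1.

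Genes that act with the family were followed in lists. With 6 libraries 0 genes of any list passed, against 0% of all genes, so the counts here are those with 5 libraries, to be read against 9.39% of all genes called higher and 10.4% lower. With trends removed these shares were 2.71% and 4.85%. Of 38 tested genes of chemokine receptor signalling, 3 rose and 3 fell and the median log2 fold change was 0.02. They included the kinase Jak2 (0.39), the G protein subunit Gng2 (0.27) and the actin regulator Wasl (0.26), which rose, and the receptor kinase Grk6 (-0.30), which fell; with length and GC trends removed 0 of the 38 passed. Of 21 transcriptional regulators of chemokine genes, 0 rose and 4 fell: Cebpb (-0.64), Relb (-0.61), Irf3 (-0.49) and the NF-kappa-B inhibitor Nfkbia (-0.48). With trends removed, 0 of these 4 passed and 1 other of the 21, Nfkb1, fell (-0.32, edgeR adjusted p 0.0366). Of 6 tested inflammatory cytokines out of 20, 0 passed, or 1 (Csf1, higher) with trends removed, and the most abundant were Il4, Il34 and Il18, at 19.6, 13.3 and 2.94 CPM per kb.

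Counts here too are to be read against 9.39% of all genes called higher and 10.4% lower, or 2.71% and 4.85% with trends removed. Among 15 genes for the glycosaminoglycans and proteases that hold or cut chemokines, 14 were tested, 2 rose and 1 fell. The 2 were Adam10 (0.23, edgeR adjusted p 0.0376) and Adam17 (0.42, edgeR adjusted p 0.0146), the membrane proteases known to shed Cx3cl1 and Cxcl16, and the gene that fell was Ext2 (-0.35), of heparan sulfate synthesis. With trends removed Adam10 (0.06, edgeR adjusted p 0.647) and Adam17 (0.24, edgeR adjusted p 0.211) did not pass, Ext2 did, and Ndst1, also of heparan sulfate synthesis, rose (0.27, edgeR adjusted p 0.0206). Adam17 had 25.5, 13.1 and 24.5 CPM in WT and 34.0, 37.9 and 28.4 CPM in Ash1l+/-. Its groups did not overlap, which was so for 38.5% of all genes tested with 6 libraries. The RNA of their substrates Cx3cl1 and Cxcl16 did not pass, as given above, and shedding of the proteins was not measured. Of 11 genes of the chemokine system under other symbols, 1 fell, the cytokine Mif (-0.27, edgeR adjusted p 0.0224), which binds Cxcr4, and with trends removed it was at 0.15 and did not pass (edgeR adjusted p 0.262). Of 17 tested genes of the response of neurons to axon injury, a list chosen with its direction in these libraries known, 10 rose and 0 fell, with a median log2 fold change of 0.70, and with trends removed 12 rose and 0 fell.

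Markers of cells that carry chemokines or their receptors, and of other cells of the ganglion, were followed in the same comparison. Their counts are to be read against 9.39% of all genes called higher and 10.4% lower. Of 8 tested neutrophil markers 0 rose and 1, S100a8, fell (-1.20, edgeR adjusted p 0.0329), and their summed level was 45.2, 56.4 and 17.7 CPM in WT and 10.3, 32.5 and 14.7 CPM in Ash1l+/-. Of 6 tested mast cell markers and 2 tested B cell markers 0 passed, and with trends removed 1 mast cell marker, Kit, fell (-0.35, edgeR adjusted p 0.00208). Blood endothelium had 1 of 7 higher (Flt1, 0.40) and lymphatic endothelium 1 of 3 higher (Pdpn, 0.36). Fibroblasts, a source of Cxcl12, had 0 of 7 higher and 3 lower, with summed levels of 848 and 841 CPM in WT replicates 1 and 3, 583 CPM in WT replicate 2 and 667 to 750 CPM in Ash1l+/-. Satellite glia had 3 of 7 higher and 0 lower, Schwann cells 1 of 7 higher and 3 lower, sensory neurons 3 of 11 higher and 2 lower, and red cells 0 of 5 higher and 2 lower. With trends removed these counts were 2 and 0, 0 and 2, 4 and 0, and 0 and 1. The shares over all genes were then 2.71% higher and 4.85% lower. Blood endothelium had 0 higher with trends removed, and the counts of macrophages, neutrophils, fibroblasts and lymphatic endothelium were as given. Skeletal muscle markers summed to 1.95 to 3.47 CPM in 5 libraries and 34.9 CPM in WT replicate 2, and of 4 tested markers of the central nervous system 1 rose and 1 fell (1 and 0 with trends removed), with Neurod6 at 0 in every library.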

How the data were processed

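Bulk RNA-seq of 6 dorsal root ganglion samples was used, 3 per genotype, grouped by the sample labels. The authors deposited raw read counts per gene and FPKM values for the same genes. The submitters' processing notes name HISAT2 2.0.5, featureCounts 1.5.0-p3 and GRCm38 (mm10). Settings for strand and for reads with several matches are not given in the sources used. The deposited FPKM equal counts over gene length and an effective library size, 0.75 of the total for WT replicate 2 and 1.02 to 1.04 in the others. Gene positions of all 57 genes matched GENCODE M21.

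Genes were filtered with filterByExpr and tested on counts with the edgeR 4.0.16 quasi-likelihood test in R 4.3.3, with TMM factors and a genotype term. P-values were adjusted by Benjamini-Hochberg over the whole set of tested genes, with a threshold of 0.05, and the SE of a log2 fold change was taken from its F statistic. Alternatives were DESeq2 1.42.0, limma-voom and limma 3.58.1 on log2(FPKM + 1) and log2(FPKM + 0.1), other scalings and filters, loess offsets for length and GC share (span 0.3), a replicate block and leaving out each library. The fit was tested on simulated data. Every pair of libraries differed by more than sampling noise (lowest chi-square per degree of freedom 3.71). Same-numbered samples did not deviate together (correlations -0.0086, -0.036 and 0.053), so they were not treated as pairs.

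Ash1l and family genes with a mean of at least 1 CPM or a call in edgeR or DESeq2 were given in full; of other lists, up to 4 called genes with the largest fold were named, or up to 3 of the highest level per kb. Other genes named, most of them with few reads, and the sequences shown were picked with the values in view. The family, the lists and the use of 5 libraries were chosen with earlier results of these data known. The values of 1 gene of the family are not reported here, though the counts include it.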

Additional observations from a re-analysis of the deposited data

How the results depend on the processing

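With 6 libraries, 0 genes of the family passed under every alternative run except without WT replicate 2, where 3 passed, so leaving out 1 library gave 0 to 3. With the replicate block 0 passed. With 5 libraries 3 passed, and 1 passed under DESeq2 (Cxcr4), with limma on log2(FPKM + 1) or log2(FPKM + 0.1) (Ccl2), and with length and GC trends removed (Ccl2). Leaving out a further library gave 1 to 3, with 1 without WT replicate 1, WT replicate 3 or Ash1l+/- replicate 3, and the replicate block gave 3. Without Ash1l+/- replicate 1, Ackr1 passed at -0.21 (edgeR adjusted p 0.0483). No sign of Ccl2, Cxcr4, Ccl27a, Ccl9 or Cxcl16 changed under any alternative. The causes of the changes below were not tested.

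Signs changed in genes that did not pass. With 6 libraries, library totals gave Ccl11 0.0894 and Ackr3 0.0204, and trend removal gave Cx3cl1 0.0294, Ccr10 0.29, Ccl25 -0.0211, Ccl28 -0.24 and Ccr2 -0.35. Leaving out 1 library gave Ccl11 -0.25 to 0.22, Ccl7 -0.0635 to 1.09, Ccr10 -0.77 to 0.0310, Cxcl10 -0.12 to 0.79, Ccl28 -0.0844 to 0.42 and Ccr2 -0.21 to 0.46. With 5 libraries, Ccr10 was -0.0144 with limma-voom, -0.00739 on log2(FPKM + 1) and -0.0347 on log2(FPKM + 0.1). Trend removal gave Ackr1 0.0199, Cxcl12 -0.0376 and Ccl25 -0.24, and the replicate block gave Ccr2 -0.12. Leaving out a further library gave Cxcl12 -0.0457 to 0.13, Ackr3 -0.25 to 0.0570, Ccr10 -0.39 to 0.27, Ccl6 -0.12 to 0.0783, Cxcl10 -0.44 to 0.40, Ccl25 -0.29 to 0.47, Ccl28 -0.39 to 0.29 and Ccr2 -0.12 to 0.60. The count filter left 37 of the 57 genes out of both comparisons.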

Other observations

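Cxcl11, the Cxcr3 ligand beside Cxcl9 and Cxcl10, is annotated as a polymorphic pseudogene and so was not part of the family as selected. It had 1.23, 1.19 and 1.04 CPM in WT and 0.869, 0.643 and 1.5 CPM in Ash1l+/-, in the order of replicates 1, 2 and 3, and its groups overlapped.

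Several scarce genes had a large part of their reads in a single library. Of 13 reads of Ccl27b, 11 were in WT replicate 2, as were 11 of 21 reads of Ccl5 and 5 of 6 reads of Cxcl17. Ash1l+/- replicate 1 held 15 of 19 reads of Cxcl9, 10 of 20 of Xcr1 and all 3 of Ccl3 and of Ccr1l1. These genes were not tested.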
